A study of Mus musculus with 8 samples.

Results

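Expression of the Notch pathway was followed in macrophages sorted from mouse mammary tumours, over 4 receptors (Notch1, Notch2, Notch3 and Notch4), 4 ligands (Dll1, Dll4, Jag1 and Jag2) and 2 target genes (Hey1 and Hes1). These 10 genes were chosen by name, with earlier results of these data known. They were represented by every probe set annotated with a single gene symbol among them. They had 19 probe sets of the 45101 on the array, and each gene was summarised by its brightest probe set. The series has 18194 genes with a probe set, of which 10916 passed a filter on dim genes and were tested. RNA came from cells carrying F4/80, a macrophage surface protein, isolated by flow sorting from mammary tumours of FVB mice aged 80 days, and was hybridised to 8 Affymetrix arrays. In the E2f3-deleted group, 4 arrays named A, E, F and H had the genotype PyMT;Lys Cre:E2f3 f/f. In the control group, 4 arrays named B, C, D and G had the genotype PyMT;E2f3 f/f. PyMT, present in both groups, is a viral oncogene used as a transgene to drive mammary tumours, and both groups carried E2f3 flanked by recombination sites. Lys Cre is a recombinase expressed from the lysozyme gene in myeloid cells. No group carried Cre without the floxed E2f3 allele, so loss of E2f3 and presence of Cre cannot be told apart. Whether each array stands for a separate animal is not stated in the labels. The p-values measure only the spread between arrays, part of which may be technical.

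Notch receptors are transmembrane proteins that bind Delta-like and Jagged ligands on a neighbouring cell. Binding allows an ADAM protease and then gamma-secretase to cut the receptor, and the released intracellular domain enters the nucleus, joins the DNA-binding protein RBPJ and switches on genes such as those of the Hes and Hey families. In blood vessels Notch4 and Dll4 are known from endothelial cells and Notch3 from the pericytes and smooth muscle cells around them, whereas Notch1 and Notch2 are also used by blood cells. Tumour-associated macrophages of PyMT mice are known to depend on RBPJ for their differentiation. The comparison of the groups asked how the deletion of E2f3, a transcription factor of cell division genes, alters expression in these macrophages.

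The arrays had median log2 signals from 5.65 to 5.69. The mean correlation with the other arrays of the group was 0.983 for E2f3-deleted replicate H, 0.990 to 0.991 for E2f3-deleted replicates A, E and F, and in the control group it ran from 0.994 to 0.995. All 15 measured genes of macrophage identity passed the filter, among them Lyz2 (lysozyme) at 14.42 in E2f3-deleted and 14.56 in control cells and Csf1r (the receptor of macrophage growth factor) at 14.33 in both. The brighter E2f3 probe set had log2 signals of 7.65, 7.54, 7.53 and 7.79 in E2f3-deleted arrays A, E, F and H, against 7.66, 7.63, 7.83 and 7.58 in control arrays B, C, D and G. The groups overlapped, with a difference of −0.05 (95% confidence interval −0.24 to 0.15). On the dimmer E2f3 probe set they overlapped too, at 5.92 to 6.12 in E2f3-deleted and 6.03 to 6.31 in control arrays. The difference there was −0.13 (95% confidence interval −0.33 to 0.06). The deleted part of the gene is not given, so these probe sets do not check the labels. No gene of the 10916 passed an adjusted p of 0.05 in limma (0%; smallest adjusted p = 0.153), while 14.2% had an unadjusted p under 0.05. Without E2f3-deleted replicate E 60 genes passed and without replicate H 14, none of them a Notch gene of the 10.

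Promoter sequence was on hand for 8 of the 10 genes, in 9 windows of 250 bases before to 50 bases after the start of transcription (RefSeq, GRCm38.p6). These are the receptors and ligands. The target genes Hey1 and Hes1 had no sequence on hand and were not searched. The 3 receptors shown here are the one whose groups did not overlap (Notch1), the one whose window holds an E2F site (Notch2) and the one with the largest difference among the genes tested (Notch3). Each is written 5′ to 3′ along the gene's own strand, with a match to an E2F site in capitals. Notch1 lies at chr2:26503773-26504072 on the minus strand, Notch2 at chr3:98013288-98013587 on the plus strand and Notch3 at chr17:32166841-32167140 on the minus strand.
Notch1: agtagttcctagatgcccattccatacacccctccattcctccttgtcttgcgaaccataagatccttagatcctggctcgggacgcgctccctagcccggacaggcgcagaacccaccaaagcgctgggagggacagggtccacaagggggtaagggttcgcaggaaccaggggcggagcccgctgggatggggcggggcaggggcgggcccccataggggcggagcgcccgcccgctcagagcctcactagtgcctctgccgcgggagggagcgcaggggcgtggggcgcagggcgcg
Notch2: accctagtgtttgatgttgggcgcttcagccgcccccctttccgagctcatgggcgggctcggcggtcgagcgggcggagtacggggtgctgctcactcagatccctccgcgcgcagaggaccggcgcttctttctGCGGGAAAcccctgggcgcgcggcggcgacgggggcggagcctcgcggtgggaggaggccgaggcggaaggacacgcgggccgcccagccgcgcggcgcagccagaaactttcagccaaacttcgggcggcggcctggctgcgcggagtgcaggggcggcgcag
Notch3: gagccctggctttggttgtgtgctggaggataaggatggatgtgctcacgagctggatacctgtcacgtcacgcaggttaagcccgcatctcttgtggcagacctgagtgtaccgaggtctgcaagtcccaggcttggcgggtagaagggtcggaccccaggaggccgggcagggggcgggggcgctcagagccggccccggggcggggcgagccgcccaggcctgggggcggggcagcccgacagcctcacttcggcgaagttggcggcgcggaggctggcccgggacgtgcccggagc
The E2F search covered TTTCCCGC, TTTCGCGC, TTTGCCGC and TTTGGCGC on both strands, which occurred in 2.26% of the 32851 promoter windows. Among the 9 Notch windows it matched only that of Notch2, as GCGGGAAA beginning 114 bases before the start. The core of the RBPJ site, TGGGAA, was searched on both strands. It differs from part of the Notch2 match only in its first letter and does not occur in that window. It occurred in 25.6% of all windows and in 0 of the 9, which include no window of Hey1 or Hes1. These matches describe letters in a window and do not show binding.

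Of the receptors, Notch1 was the only gene of the 10 whose groups did not overlap on its brightest probe set. Its log2 signals were 11.83, 11.52, 11.63 and 11.60 in E2f3-deleted arrays A, E, F and H, against 11.35, 11.22, 11.34 and 11.21 in control arrays B, C, D and G. Every E2f3-deleted array thus lay above every control, including replicate H. The means were 11.64 ± 0.13 in E2f3-deleted and 11.28 ± 0.08 in control cells (SD, n = 4 each), a difference of 0.36 (SE 0.08, 1.29-fold), which did not pass the threshold (limma, adjusted p = 0.186). Groups that did not overlap occurred in 8.49% of all genes tested, and in 4.26% with E2f3-deleted arrays higher. The dimmer Notch1 probe set, 1418633_at, had 6.89 ± 0.12 in E2f3-deleted and 6.82 ± 0.11 in control cells, a difference of 0.07 with overlapping groups, so the separation was seen with the brighter probe set 1418634_at only. In these and all following results on sorted cells measured in bulk, more cells of a type and more RNA per cell cannot be told apart.

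Notch2, the other receptor used widely by blood cells, differed little on its brightest probe set. Its log2 signals were 10.75, 10.68, 10.65 and 10.58 in E2f3-deleted arrays A, E, F and H, against 10.66, 10.97, 10.60 and 10.54 in control arrays B, C, D and G. The E2f3-deleted values lay inside the range of the controls, which control replicate C extended upwards. The difference was −0.03 (95% confidence interval −0.25 to 0.20; limma, adjusted p = 0.910). Among the 8 genes tested this was the difference nearest to 0. The dimmer Notch2 probe set, 1451889_at, lay under the filter value. Its difference was −0.13 (95% confidence interval −0.30 to 0.03), with overlapping groups.

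Notch3, known from pericytes and smooth muscle, had log2 signals of 9.86, 8.76, 9.68 and 7.69 in E2f3-deleted arrays A, E, F and H, against 7.73, 8.20, 7.99 and 8.11 in control arrays B, C, D and G. Replicates A, E and F lay above every control and replicate H below every control. The means were 9.0 ± 1.0 in E2f3-deleted and 8.01 ± 0.20 in control cells, a difference of 0.99 (SE 0.44; limma, adjusted p = 0.362). With each array left out in turn, the difference was largest without replicate H, at 1.43 (SE 0.26; limma, adjusted p = 0.0758). It was smallest without replicate A, at 0.70 (SE 0.42; limma, adjusted p = 0.553). The dimmer probe set had the same order, with 6.16, 5.82, 6.37 and 5.0 in E2f3-deleted arrays A, E, F and H, against 5.02 to 5.25 in the controls.

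Notch4, a receptor of endothelial cells, was dim and stayed under the filter value of log2 6.0, so its adjusted p comes from the fit without the filter. Its log2 signals were 6.08, 5.14, 6.05 and 4.77 in E2f3-deleted arrays A, E, F and H, against 4.06, 4.08, 4.90 and 4.24 in control arrays B, C, D and G. Replicates A, E and F lay above every control, and replicate H lay between control replicate D and the other controls. The difference was 1.19 (SE 0.33, 2.29-fold; limma without the filter, adjusted p = 0.291). With each array left out in turn it was largest without replicate H, at 1.44 (limma without the filter, adjusted p = 0.0857). It was smallest without replicate A, at 1.00 (limma without the filter, adjusted p = 0.513). The other Notch4 probe sets, near the bottom of the scale, had smaller differences of 0.27 and 0.14, the second with groups that did not overlap (3.95 to 4.12 in E2f3-deleted and 3.80 to 3.94 in control arrays).

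**Figure D1:**
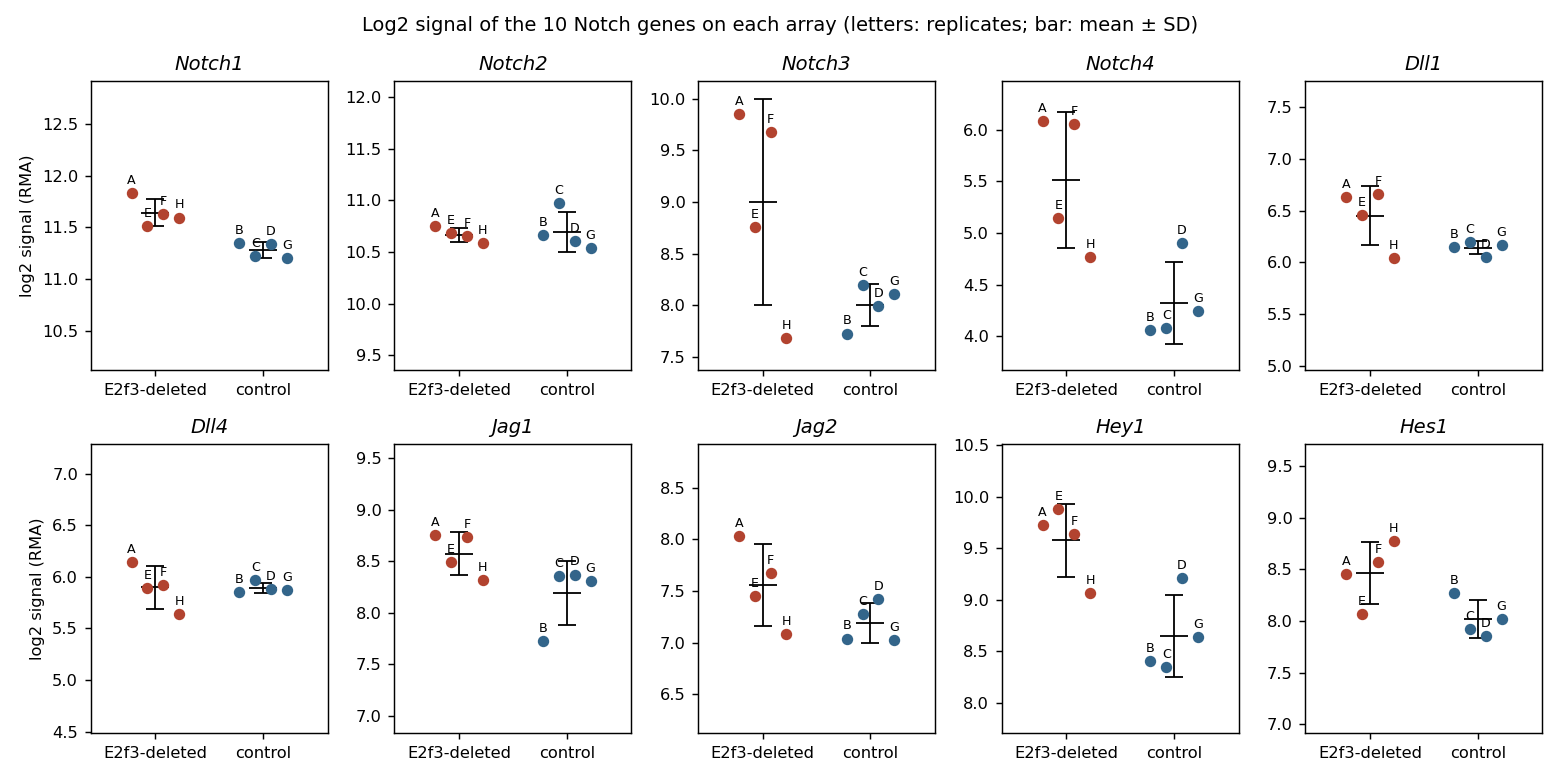
Log2 signal of the brightest probe set of each gene on every array, with E2f3-deleted arrays on the left and controls on the right of each panel; letters name replicates and the bar is the mean ± SD of 4 arrays. The groups are separate for Notch1, and replicate H lies below the other E2f3-deleted arrays for Notch2, Notch3, Notch4, Dll1, Dll4, Jag1, Jag2 and Hey1 but above them for Hes1.

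Of the ligands, Dll1 had log2 signals of 6.63, 6.46, 6.66 and 6.05 in E2f3-deleted arrays A, E, F and H, against 6.14, 6.20, 6.05 and 6.17 in control arrays B, C, D and G. As for Notch3, replicates A, E and F were above every control and replicate H was at the bottom. The difference was 0.31 (SE 0.13; limma, adjusted p = 0.348). With each array left out in turn it was largest without replicate H, at 0.44 (SE 0.07; limma, adjusted p = 0.0715). It was smallest without replicate F, at 0.24 (SE 0.14; limma, adjusted p = 0.456). Dll1 had a single probe set.

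Dll4, the Delta-like ligand of endothelial tip cells and arteries, had log2 signals of 6.14, 5.89, 5.92 and 5.64 in E2f3-deleted arrays A, E, F and H, against 5.86, 5.96, 5.88 and 5.87 in control arrays B, C, D and G. Its E2f3-deleted arrays spread to both sides of the narrow range of the controls. The difference was 0.01 (95% confidence interval −0.23 to 0.24; limma without the filter, adjusted p = 0.988), and its sign turned under 10 of 17 other settings run for it. The second probe set, dimmer, had 5.67, 5.29, 5.40 and 5.0 in E2f3-deleted arrays A, E, F and H, against 5.07 to 5.19 in the controls, a difference of 0.21 (95% confidence interval −0.08 to 0.50). On that probe set replicates A, E and F lay above every control.

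Jag1, a Jagged ligand made by endothelial, epithelial and stromal cells, had log2 signals of 8.75, 8.50, 8.73 and 8.31 in E2f3-deleted arrays A, E, F and H, against 7.72, 8.36, 8.37 and 8.31 in control arrays B, C, D and G. Replicate H lay within the controls, and control replicate B lay far below the other controls. The difference was 0.38 (SE 0.17; limma, adjusted p = 0.355), and without control replicate B it was 0.23, a change of over 1.5 times. The 2 dimmer Jag1 probe sets did not have the same direction, with differences of 0.18 and −0.16.

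Jag2, the other Jagged ligand, had log2 signals of 8.03, 7.45, 7.67 and 7.08 in E2f3-deleted arrays A, E, F and H, against 7.04, 7.28, 7.42 and 7.02 in control arrays B, C, D and G. Replicates A, E and F were above the controls and replicate H was among them. The difference was 0.37 (SE 0.19; limma, adjusted p = 0.422), and it was 0.21 without replicate A and 0.53 without replicate H. The dimmer probe set had a difference of 0.23.

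Of the target genes, Hey1, a repressor of transcription induced by Notch in endothelial and other cells, had log2 signals of 9.72, 9.88, 9.64 and 9.06 in E2f3-deleted arrays A, E, F and H, against 8.40, 8.35, 9.21 and 8.64 in control arrays B, C, D and G. Replicate H overlapped the controls through control replicate D. The difference was 0.93 (SE 0.23, 1.90-fold; limma, adjusted p = 0.206), and 1.10 without replicate H (limma, adjusted p = 0.0789). With each array left out in turn it was smallest without control replicate C, at 0.82 (limma, adjusted p = 0.341). It was largest without control replicate D, at 1.11 (limma, adjusted p = 0.1385). Hes1, a repressor of the same class that is induced by Notch and by other signals, had another order of arrays. Its log2 signals were 8.45, 8.06, 8.58 and 8.77 in E2f3-deleted arrays A, E, F and H, against 8.27, 7.92, 7.86 and 8.02 in control arrays B, C, D and G. Replicate H was the highest of the 8 arrays, and replicate E lay below control replicate B. The difference was 0.45 (SE 0.16, 1.36-fold; limma, adjusted p = 0.281).

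**Figure D2:**
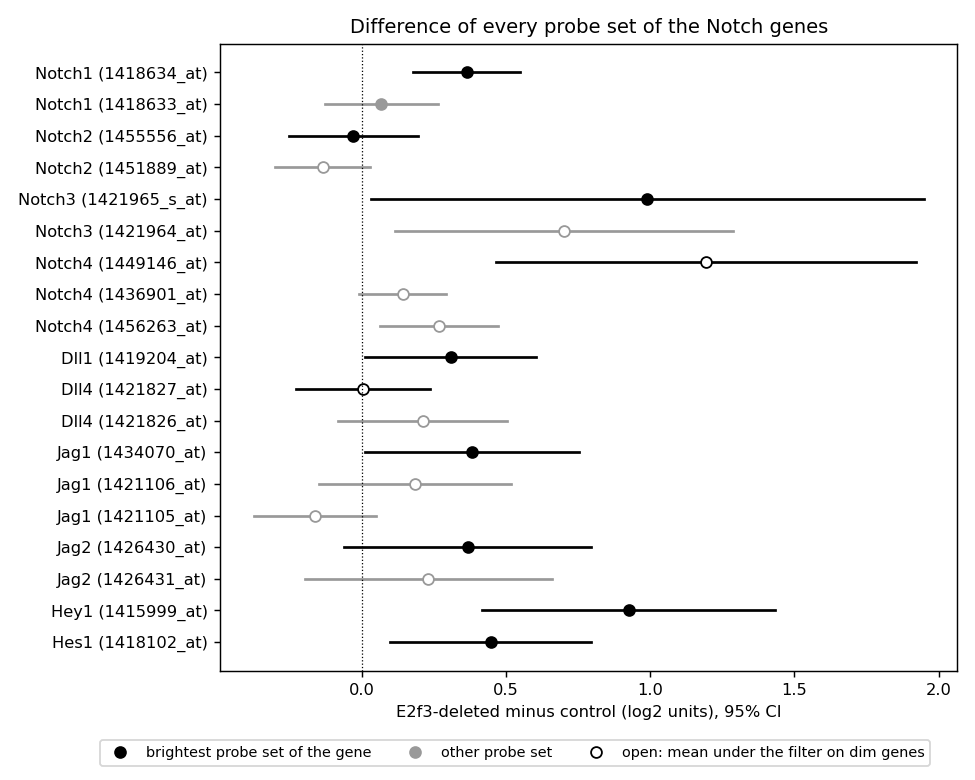
Difference between E2f3-deleted and control arrays on the log2 scale for each of the 19 probe sets, with the 95% confidence interval, unadjusted, from the limma fit over all probe sets. Of the 19, 16 lie above 0 and 3 below, and filled and open points mark probe sets with a mean above and under the filter value.

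Over the 10 genes, 9 had a difference above 0 and 1 below, with a median of 0.37. The 8 that passed the filter did so in both groups, and 7 of these 8 were above 0, with the same median of 0.37. Of all genes tested, 41.3% were above 0, with a median of −0.03. None of the 10 passed the adjusted threshold. At an unadjusted p under 0.05 there were 4 of the 8, namely Notch1, Dll1, Hey1 and Hes1, all higher in E2f3-deleted cells, where 7.27% of all genes tested were called in that direction. The spread was larger among E2f3-deleted than among control arrays for 7 of the 10 genes. Replicate A lay above all 4 controls for 9 genes, replicate F for 8, replicate E for 7 and replicate H for 2, Notch1 and Hes1, where such values occurred in 24.9%, 23.9%, 18.6% and 24.9% of all genes tested. Replicate H lay below all controls for 3 genes, Notch3, Dll1 and Dll4, as it did for 41.8% of all genes tested. Without replicate H the groups did not overlap for 7 of the 10 genes, all higher in E2f3-deleted cells (Notch1, Notch3, Notch4, Dll1, Jag1, Jag2 and Hey1), and 6 of these were among the 8 tested, against 7.11% of all genes tested. The number was 3 without control replicate D (Notch1, Notch4 and Hey1), of which 2 were among the 8 tested. Under that setting 6.63% of all genes tested did not overlap with E2f3-deleted arrays higher. It was 2 (Notch1 and Hes1) without E2f3-deleted replicate E, where that share was 7.76%, and without control replicate B, where it was 4.73%. As the genes were chosen with earlier results of these data known, the counts beside these shares are a description and not a test.

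Markers of other cell types moved with several of these genes across the arrays. The 16 endothelial markers tested, of 18 with a probe set, were all above 0 in E2f3-deleted arrays, with a median difference of 1.23, among them the receptor Kdr (1.10) and Mmrn2 (1.79). Set against the mean of the controls, their median on each array was 1.99, 1.07, 2.01 and 0.02 in E2f3-deleted arrays A, E, F and H, against −0.45 to 0.44 in the controls. Cdh5 and Pecam1, defining markers of endothelium, had means over all arrays under the filter value, with A, E and F above every control and H within their range. Cdh5 had 6.57, 6.07, 7.25 and 5.0 in E2f3-deleted arrays A, E, F and H, against 4.83 to 5.61 in the controls, and its difference was 1.01. Pecam1 had 6.69, 5.86, 6.31 and 4.54, against 4.53 to 5.18 in the controls, a difference of 0.98. Of the 11 mural markers tested, of pericytes and smooth muscle, 10 were above 0, with per-array medians of 1.19, 0.29, 1.12 and −0.41 in E2f3-deleted arrays A, E, F and H, against −0.13 to 0.08 in the controls. Single mural markers differed in replicate H. Pdgfrb, Kcnj8 and Abcc9 lay above every control there, Mcam within the controls and the other tested ones below them. Cspg4, the mural marker not above 0, had a difference of −0.54. Notch3, Notch4 and Dll1 had the same division of arrays as the medians of the endothelial and mural lists, with A and F high and H within or below the controls. The part of these cells in the differences was not tested.

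The other marker lists had other patterns. All 13 epithelial markers were above 0, with per-array medians of 0.32, 0.84, 0.83 and −0.25 in E2f3-deleted arrays A, E, F and H, against −0.43 to 0.78 in the controls. Control replicate D was the highest control there, as it also was for the endothelial median (0.44), Notch4 and Hey1. Fibroblast markers (10 of 10 above 0) had medians from −0.39 to 2.13 in E2f3-deleted and from −0.73 to 0.45 in control arrays, and mast cell markers (7 of 7 above 0) from −0.34 to 3.99 and from −0.47 to 0.22. Both were highest in replicate H, as was Hes1. The 4 lymphocyte markers tested were below 0, 2 of the 3 neutrophil markers were above 0, and all 15 macrophage identity genes were below 0, with medians from −0.23 to −0.08 in E2f3-deleted and from −0.04 to 0.08 in control arrays. Of the arterial and tip cell genes 6 of 7 were above 0, with a median difference of 0.53, and both venous genes tested, Aplnr (1.45) and Nr2f2 (0.67), were above 0.

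**Figure D3:**
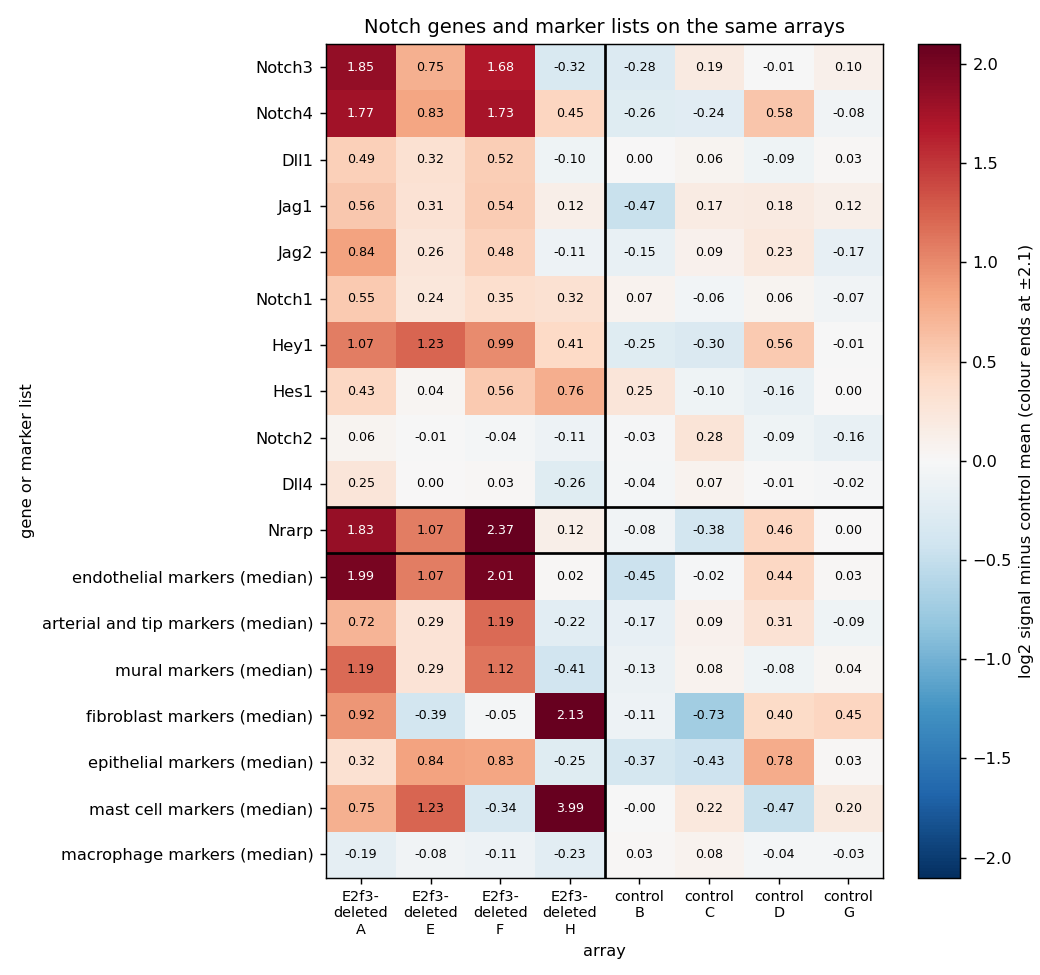
Log2 signal minus the control mean for the 10 Notch genes, for Nrarp and for the median of each marker list, on every array, with E2f3-deleted arrays in the left columns. Notch3, Notch4 and Nrarp are above 1.6 in replicates A and F, where the endothelial median is 1.99 and 2.01, and are at −0.32, 0.45 and 0.12 in replicate H, where it is 0.02.

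With the endothelial median of each array as a covariate, the difference of Notch3 was −0.23 (SE 0.22), of Dll1 −0.01, of Jag2 −0.14 and of Jag1 0.02. Those of Notch4 and Hey1 were 0.28 and 0.47, each less than the difference without the covariate. Notch1 had 0.28 (SE 0.11) and Hes1 0.62 (SE 0.22) with the covariate, against 0.36 and 0.45 without it. None passed the threshold (limma, adjusted p from 0.263 for Hes1 to 0.988 for Dll1). The endothelial median itself had group means that differed by 1.28, so this fit cannot separate it from the group. It would lower the difference of any gene that follows this order of arrays. What these changes owe to endothelial cells was not tested. The mural and epithelial medians were also used in place of the endothelial one, choices made after seeing the data. With the mural median Notch3 had 0.23, Dll1 0.10, Hey1 0.76, Notch1 0.31 and Hes1 0.50. With the epithelial median these genes had 0.74, 0.25, 0.64, 0.36 and 0.57.

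Arrays are named above by their titles, but their descriptions name scan files by other letters. Read by those letters, control array B and E2f3-deleted array F exchange groups. Under that grouping the differences were 0.22 for Notch1, 0.01 for Notch3, 0.20 for Notch4, 0.31 for Hey1, 0.30 for Hes1 and −0.12 for Jag1. No gene of the 10 then had an unadjusted p under 0.05 or groups that did not overlap, where 4.11% and 2.41% of all genes tested did.

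**Figure D4:**
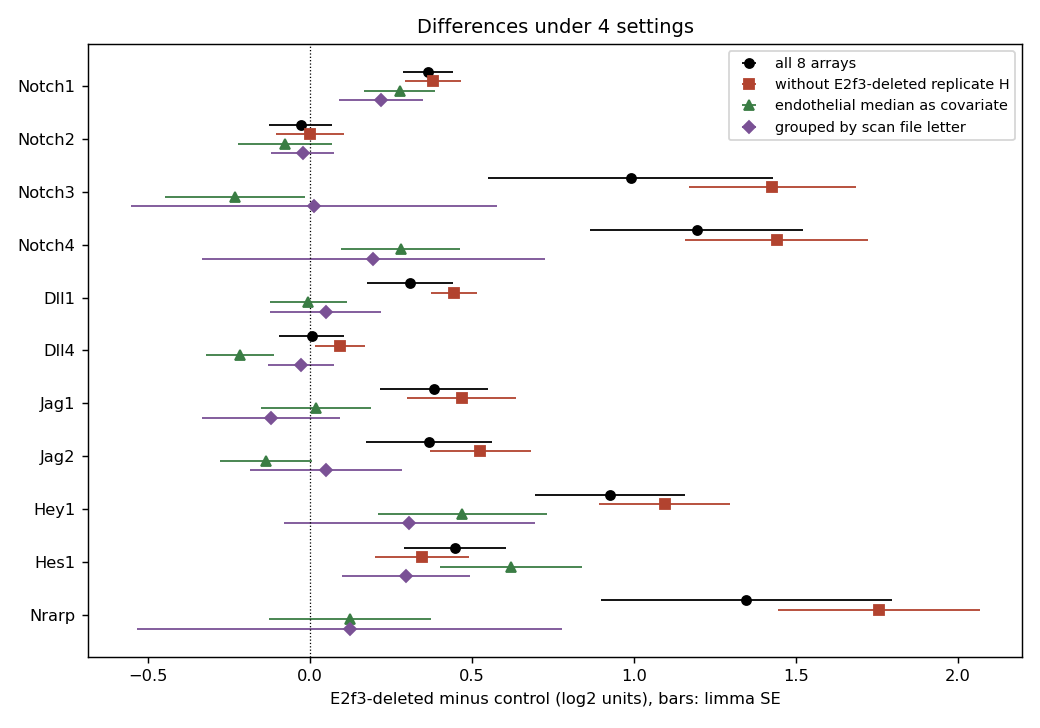
Difference between E2f3-deleted and control arrays on the log2 scale for each gene and Nrarp under 4 settings, with the limma SE as bars. Notch1 and Hes1 lie between 0.22 and 0.62 under all 4, whereas Notch3 lies between −0.23 and 1.43.

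For the 3 genes with the largest differences, the genes with the most similar pattern over the 8 arrays were looked up by Pearson correlation among all genes tested, as a description. The correlations share the group difference and the low values of replicate H. For Notch4 they were Gpihbp1 (0.994), an endothelial protein of capillaries, Cdh13 (0.994), the endothelial receptor Kdr (0.990) and Rph3al (0.987). For Notch3 they were Igf2 (0.995), Rgs4 (0.990), the pericyte marker Rgs5 (0.988) and Ppp1r14a (0.988), an inhibitor of myosin phosphatase in smooth muscle. For Hey1 they were Marveld2 (0.977), a protein of epithelial tight junctions, Slc5a1 (0.973), Lrrc1 (0.966) and the milk protein gene Csn3 (0.956). The 3 sets held different genes, but with only 4 genes in each this does not set the patterns apart. Notch4 itself had a correlation of 0.89 with Hey1 and 0.888 with Notch3, and Notch3 had 0.723 with Hey1.

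The rest of the pathway was read from 5 further lists, in which 37 of 53 genes were tested, 18 above 0 and 19 below, with a median of −0.02 and 0 past the adjusted threshold. At an unadjusted p under 0.05 there was 1, Nrarp, against 14.2% of all genes tested. Nrarp is a Notch target whose product restrains the pathway. Its log2 signals were 9.05, 8.30, 9.60 and 7.35 in E2f3-deleted arrays A, E, F and H, against 7.15, 6.85, 7.69 and 7.23 in control arrays B, C, D and G. Replicates A, E and F lay above every control and replicate H among them, the same division as in Notch4. The difference was 1.35 (SE 0.45, 2.54-fold; limma, adjusted p = 0.274). With each array left out in turn it ran from 1.01 without replicate F to 1.76 without replicate H. It was 0.88 when the probe sets of the gene were averaged, 0.12 with the endothelial covariate and 0.12 when scan file letters set the groups.

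The machinery that cuts, modifies and reads Notch had small differences. Among the proteases, 4 of 7 were above 0, with Adam10, which makes the first cut after ligand binding, at 0.04, Furin, which matures the receptor, at −0.08, and the gamma-secretase subunits Aph1a and Psen2 at 0.06 and −0.13. Among the enzymes that add sugars to Notch, 1 of 5 was above 0, with Lfng at −0.15, Rfng at −0.08, Pofut1 at −0.05 and Poglut1 at 0.04. Rbpj itself had log2 signals of 12.58 ± 0.09 in E2f3-deleted and 12.65 ± 0.05 in control cells, a difference of −0.06 (SE 0.06; limma, adjusted p = 0.646). Of its nuclear partners and corepressors 7 of 11, a count that includes Rbpj, were above 0, with Kat2b at 0.09, Maml1 at 0.05 and Spen at −0.08. Among the regulators of endocytosis and turnover, 6 of 12 were above 0, with Dtx3 at 0.26, Dtx1 at 0.25 and Neurl1b at 0.14. Of the other ligands and Hes and Hey genes only 2 of 10 passed the filter, Hes6 (−0.13) and Hes7 (−0.10).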

How the data were processed

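Log2 signals of 45101 probe sets on 8 Affymetrix arrays, 4 E2f3-deleted and 4 control, were used as the authors deposited them. They had been made with RMA, per the submitters' processing notes. Its version is not given in the sources used here, nor are scan dates. RMA equalises the arrays and would hide a shift common to most genes. Arrays were grouped by title.

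Probe sets were named from the platform annotation: 34958 had 1 symbol, 932 several and 9211 none, and the last 2 kinds were not used. Each gene was represented by its brightest probe set, and those in the lowest 40% by mean signal (under log2 6.0) were left out. The test of each difference, E2f3-deleted minus control, was limma 3.58.1 under R 4.3.3 (two-sided, Benjamini-Hochberg adjusted over all 10916 genes, threshold 0.05). Notch4 and Dll4, under the filter, were fitted with all 18194 genes, and single probe sets with all probe sets. On simulated arrays of 10916 genes the test recovered 68.1%, 88.3% and 100% of changes of log2 0.5, 1 and 2, with 10 unchanged genes called. The simulation drew independent normal noise with the same SD in both groups for each gene. In the data the spread could differ, as for Notch3 (SD 1.0 in E2f3-deleted and 0.20 in control arrays). These rates over all genes therefore do not give the chance of finding a change in a Notch gene. The number of arrays and the spread among them limit the precision.

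The members and the 16 gene lists were chosen with earlier results of these data known. Named genes were all 10 members, the 4 with the smallest p of each other Notch list, Rbpj, the 4 nearest in pattern to 3 members, and the 2 brightest markers of a list. Cdh5 and Pecam1, and the mural markers Pdgfrb, Kcnj8, Abcc9, Mcam and Cspg4, were named after their values were seen. Alternatives covered the probe set summary, the filter, normalization, variance prior, array weights, each array left out, the scan file letters and covariates.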

Additional observations from a re-analysis of the deposited data

Results flagged for a closer look

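Of the 38 groups of 4 values examined (19 probe sets in each of the 2 groups), 1 held an array far from the others. Jag1, on its brightest probe set 1434070_at, had a log2 signal of 7.72 in control replicate B, where the other controls ran from 8.31 to 8.37. The gap to the nearest control was 0.90 of the whole range, above Dixon's critical value for 4 values. Chance alone places about 5% of such groups past this value. On the second probe set, 1421106_at, control replicate B was again the lowest control at 4.77, against 5.11 to 5.49, and on the third, 1421105_at, it was the highest at 4.78, against 4.47 to 4.59.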

How the results depend on the processing

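Of 184 member differences recomputed under other settings (up to 19 for each gene, with the mural and epithelial covariates, which were chosen after seeing the data), 167 kept their direction and their side of the threshold, 17 turned in sign and 0 passed the threshold. The smallest adjusted p of a Notch gene over these settings was 0.0715, for Dll1 without E2f3-deleted replicate H. At an adjusted p of 0.1, applied to the analysis of all 8 arrays as reported, 0 were called. Notch2, near 0, was 0.0029 with array weights, 0.0055 with the epithelial covariate, and from −0.0799 to 0.0645 with each array left out. With the endothelial covariate Notch3 was −0.2314, Dll1 −0.0052, Dll4 −0.2171 and Jag2 −0.1354. Dll4 was also −0.0092 after further quantile normalization, −0.0052 with arrays centred, −0.0288 with the scan file letters, −0.1364 with the mural covariate and −0.0285 with the epithelial one, and from −0.0755 to 0.093 with each array left out. Jag1 was −0.1206 with the scan file letters. The cause of these turns was not tested. The number of Notch genes, tested or not, with groups that did not overlap was 1. It was 2 when probe sets of a gene were averaged (Notch1 and Notch4), both higher in E2f3-deleted arrays. Only 1 of these 2 was among the genes tested under that setting. There, 3.4% of all genes tested did not overlap with E2f3-deleted arrays higher. The number of such Notch genes was 0 with the scan file letters. It ran from 1 to 7 with each array left out, the highest without E2f3-deleted replicate H. The number of genes called over the whole array, 0, ran from 0 to 60 with each array left out. The number of tested Notch genes at an unadjusted p under 0.05, a count also added after seeing the data, was 4 beside 14.2% of all genes tested, and was 7 with array weights (16.1% of all genes), 7 without replicate H (13.8%), 2 without replicate F (13.4%), 2 with the endothelial covariate (16.3%) and 0 with the scan file letters (4.11%). No paired analysis was possible because the replicate letters of the groups are not shared. Notch4 and Dll4 had means under the filter value, Dll4 only just, at 5.90. Differences of dim probe sets can be compressed.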
